A study of Mus musculus with 6 samples.

Results

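The annexins are a family of calcium-regulated proteins that bind phospholipid membranes, and 10 of their genes (Anxa1 to Anxa8, Anxa10 and Anxa13) were followed across increasing induction of reprogramming factors in mouse intestinal organoids. The members are the annexin genes of a named list, matched by symbol in tables of 55416 gene identifiers, and all 10 were among the 16975 genes with enough counts to be tested. Anxa9 and Anxa11 complete the 12 annexin genes in the tables and are given beside them. Organoids are epithelial cultures grown in a gel. These came from small intestine of mice aged 4 to 8 weeks with 2 homozygous alleles, Rosa26-rtTA Tg/Tg and Col1A1-TetO-OSKM Tg/Tg, so that every group, control included, carried a transactivator at Rosa26 and an inducible cassette of Oct4, Sox2, Klf4 and Myc at Col1A1. The control group had no doxycycline, and the other groups had 0.1 or 0.5 µg/ml doxycycline for 3 days, a design meant to turn the factors on to different degrees. Each of the 3 groups held 2 libraries, described as biological replicates, and no source used here says whether these were separate mice or cultures, so p values measure only the spread between these libraries. No group received doxycycline without the cassette, so effects of the drug and of the factors cannot be told apart.

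An annexin is built of a conserved core of repeats that holds calcium and docks onto negatively charged lipids, chiefly phosphatidylserine, and of a variable amino-terminal tail that binds partners such as S100 proteins. Members organise membrane domains, vesicle fusion and exocytosis, and several assemble at wounds in the plasma membrane and help to close them. In the gut, Anxa1 is known for epithelial wound repair and as a marker of regenerating and fetal-like epithelium, Anxa13 for its near restriction to intestinal epithelium, and Anxa10 for the gastric mucosa.

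For 7 of the 10 members the RefSeq table used here holds a stretch from 250 bases before to 50 bases after an annotated start (build GRCm38.p6), in 9 entries since Anxa4 and Anxa7 have alternative starts. Anxa3, Anxa6 and Anxa13 have no entry. The 250 bases before the start are shown for Anxa2, the most abundant annexin at both doses, and for Anxa1 and Anxa10, which also rose at both doses, because these are the entries that hold the letters TATAAA. Capitals mark the motifs found in them.

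Anxa1: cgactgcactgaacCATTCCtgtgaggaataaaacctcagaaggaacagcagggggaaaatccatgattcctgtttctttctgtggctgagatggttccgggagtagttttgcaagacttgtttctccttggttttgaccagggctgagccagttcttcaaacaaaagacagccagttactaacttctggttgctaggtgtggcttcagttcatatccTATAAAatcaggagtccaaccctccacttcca
Anxa2: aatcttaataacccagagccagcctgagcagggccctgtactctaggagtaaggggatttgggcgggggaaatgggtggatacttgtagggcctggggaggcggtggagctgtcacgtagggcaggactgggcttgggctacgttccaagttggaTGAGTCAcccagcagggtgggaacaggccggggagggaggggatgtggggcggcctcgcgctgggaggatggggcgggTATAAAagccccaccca
Anxa10: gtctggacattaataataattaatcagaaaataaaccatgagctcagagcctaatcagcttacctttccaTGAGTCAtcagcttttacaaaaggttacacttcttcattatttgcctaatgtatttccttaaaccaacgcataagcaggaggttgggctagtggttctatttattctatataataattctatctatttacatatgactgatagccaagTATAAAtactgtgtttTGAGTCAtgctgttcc

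These stretches lie at chr19:20390672-20390921 on the minus strand (Anxa1), chr9:69453433-69453682 on the plus strand (Anxa2) and chr8:62123194-62123443 on the minus strand (Anxa10). TATAAA, the TATA box letters, begins 32 bases before the start in Anxa1 and Anxa10 and 17 before it in Anxa2, and on either strand it is in 13.6% of all 32851 entries of the table. TGACTCA, the AP-1 letters, was found on the opposite strand, as TGAGTCA, 95 bases before the Anxa2 start and 180 and 16 before the Anxa10 start, against 5.20% of all entries. GGAATG, the TEAD letters, was found as CATTCC in Anxa1, against 14.7% of all. Among letters linked to the induced factors, CACGTG was in Anxa7 (7.15% of all entries), GGGTGTGG or GGGCGTGG in Anxa4 and Anxa7 (8.58%), and ATGCAAAT (1.74%) and ATTGTT (10.7%) in no member entry. None of these motifs overlapped another, and a match describes letters in this window only.

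The libraries held 45289760 to 72547738 expected counts, the authors' estimates of reads per gene, with the most in the first library at 0.1 µg/ml. The 4 factor genes were higher at each dose than in control and higher at 0.5 than at 0.1 µg/ml. Pou5f1 (Oct4) went from 0.191 ± 0.0732 CPM (counts per 1000000 counts of the library, scaled by TMM factors) in control to 139 ± 4.10 and 499 ± 18.5 CPM (SD, n = 2). Mitochondrially encoded genes took 7.19 to 8.16% of the counts of a library. Epithelial markers were present in every group, with Epcam at 784, 698 and 588 CPM and Cdh1 at 751, 748 and 877 CPM on average in control, 0.1 and 0.5 µg/ml. Their levels changed: of the 9 listed, 5 were higher and 4 lower at 0.5 µg/ml than in control, beside 34.4% and 33.1% of all tested genes. Cdh1, Vil1, Krt8, Krt19 and Krt20 were higher, with Krt8 going from 1144 to 3102 CPM. Epcam, Krt18, Cdx1 and Cdx2 were lower, with Cdx1 going from 150 to 50.6 CPM and Cdx2 from 178 to 58.6 CPM. Markers of non-epithelial cells differed by type. Cd3g and Adgre1 among the 14 immune markers and Cdh5, Emcn and Cldn5 among the 8 endothelial markers had no count in any library, and 6 smooth muscle markers summed to at most 1.63 CPM. The endothelial markers summed to 0.709 to 0.957 CPM in control, 2.20 to 2.46 CPM with the lower dose and 4.78 to 5.22 CPM with the higher, of which Tek averaged 0.171, 1.60 and 3.63 CPM. Immune, fibroblast, squamous and gastric marker sums were higher at 0.5 µg/ml than in control and are given beside the annexins concerned. The 7 tuft cell markers also rose as a sum, from 3.46 to 4.79 CPM in control to 147.1 to 147.7 and 411 to 419 CPM. Of the 4 tuft markers tested, 3 were higher and 1 lower at 0.5 µg/ml than in control, beside the same shares of all genes.

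In control organoids the annexin transcripts were dominated by Anxa4, Anxa2 and Anxa13. Levels of different genes are compared as TPM, which is scaled by transcript length, and tests of change were made on counts with edgeR's quasi-likelihood test, adjusted over all 16975 genes. Anxa4, at 636 ± 20.1 TPM (SD, n = 2), made up 53.3% of the summed annexin TPM, Anxa2 at 277 ± 26.9 TPM 23.2%, and Anxa13 at 156 ± 8.15 TPM 13.0%. The others followed in the order Anxa7 (40.9 ± 2.09 TPM), Anxa1 (25.1 ± 0.226), Anxa5 (22.0 ± 0.841), Anxa3 (18.2 ± 3.10), Anxa10 (11.6 ± 1.36), Anxa6 (7.73 ± 0.346) and Anxa8 (0.190 ± 0.0424 TPM). No gene of this order overlapped the next in the control libraries.

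Of the 10 annexins, 8 were higher and 2 lower at 0.1 µg/ml than in control, where 34.6% of all tested genes were called (20.8% higher and 13.8% lower), and the same 8 and 2 were higher and lower at 0.5 µg/ml, where 67.5% of all genes were called (34.4% higher and 33.1% lower). The genes that rose were Anxa1, Anxa2, Anxa3, Anxa5, Anxa6, Anxa7, Anxa8 and Anxa10, and Anxa4 and Anxa13 fell. Between the doses 6 were higher at 0.5 µg/ml, 2 were lower and 2 did not pass, with 58.9% of all genes called (29.8% higher and 29.1% lower). Higher in all 3 comparisons were 6 of the 10, beside 13.9% of all genes, and lower in all 3 were 2, beside 9.32%. The median log2 fold change of the 10 was 0.90 at 0.1 µg/ml and 1.62 at 0.5 µg/ml over control, beside 0.02 and 0.00 over all tested genes, and 0.69 beside -0.02 between the doses. In all 10 the control libraries overlapped neither dose, as in 67.8% of all tested genes at 0.1 µg/ml and 84.1% at 0.5 µg/ml, and in 9 of 10 the doses did not overlap each other, as in 80.7% of all. The comparisons with control share the same control libraries.

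**Figure D1:**
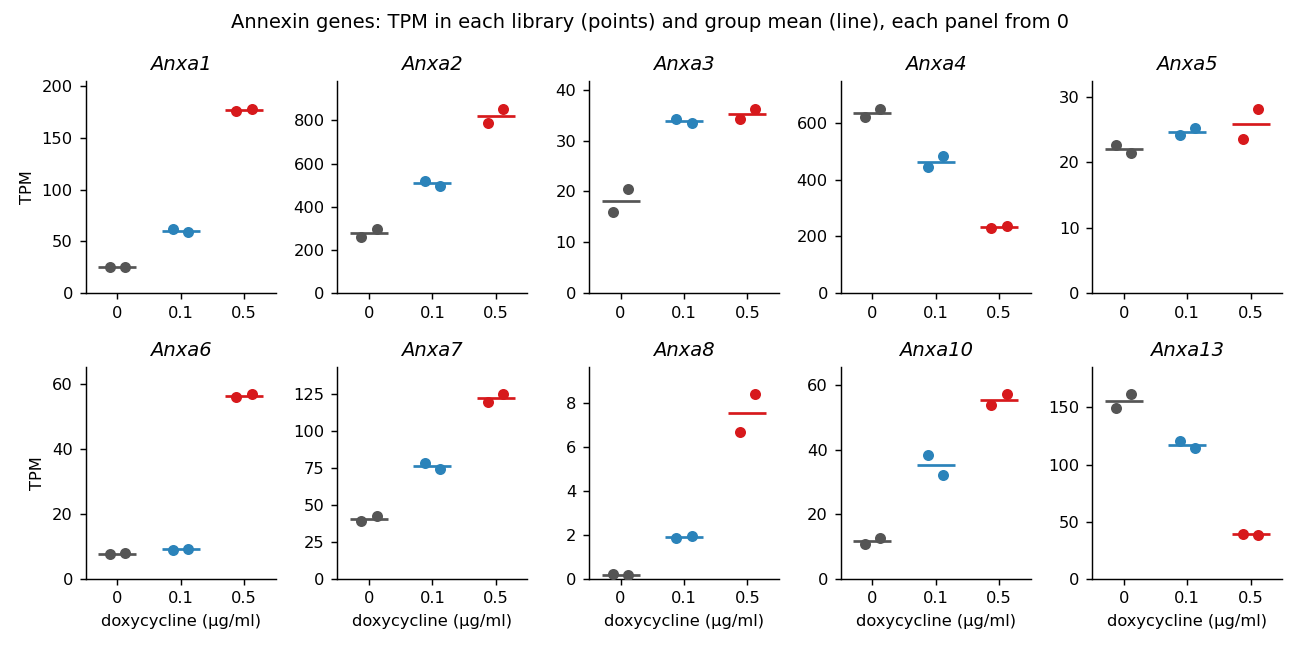
TPM of each annexin gene (vertical axis, each panel from 0) against doxycycline dose in µg/ml, with a point for each of the 2 libraries of a group and a line at their mean. Anxa4 and Anxa13 step down with dose, Anxa6 is at 8.92 and 9.18 TPM at 0.1 µg/ml and 56.0 and 56.8 TPM at 0.5 µg/ml, and Anxa5 is the gene whose doses overlap.

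The annexins best known from regenerating and squamous epithelium, Anxa1 and Anxa8, rose at each step. Anxa1 encodes a glucocorticoid-regulated protein that damps inflammation through formyl peptide receptors. Its level was 25.3 and 25.0 TPM in control, 61.8 and 58.7 TPM at 0.1 µg/ml and 176 and 178 TPM at 0.5 µg/ml. The 3 groups were well apart, and the gene moved from the fifth to the third most abundant annexin. Its log2 fold change was 1.35 ± 0.0550 (SE) at 0.1 µg/ml (edgeR adjusted p = 1.01e-07) and 1.64 ± 0.0517 between the doses (adjusted p = 1.54e-08). Anxa8, found in stratified epithelia, was the least abundant of the 10 in every group. It stood at 0.22 and 0.16 TPM in control, from 16 and 11 counts, at 1.85 and 1.95 TPM at 0.1 µg/ml, and at 6.68 and 8.39 TPM at 0.5 µg/ml. The groups did not overlap, and of the members this gene had the largest edgeR fold over control, with a log2 fold change of 3.37 ± 0.233 (SE) at 0.1 µg/ml (edgeR adjusted p = 4.32e-06) and 5.41 ± 0.205 at 0.5 µg/ml (adjusted p = 1.08e-08). Its fold depends on the scale: with limma on log2(TPM + 1) the value was 1.29 at 0.1 µg/ml, below the 1.53 of Anxa10, and 2.84 at 0.5 µg/ml. Summed CPM of the 12 squamous keratinocyte markers, such as Krt13, ranged from 6.86 to 8.33 in control, 56.6 to 61.3 at 0.1 µg/ml and 460.4 to 481 at 0.5 µg/ml. Of the 10 tested, 6 rose, 1 fell and 3 were not called at 0.1 µg/ml, beside 20.8% higher and 13.8% lower of all genes. At 0.5 µg/ml over control 9 rose and 1 fell, beside 34.4% and 33.1%. The part of squamous cells in the rise of Anxa8 was not tested. In bulk RNA, a change in the number of cells of a type and a change in RNA per cell cannot be told apart.

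Anxa2, Anxa7 and Anxa3 rose already at 0.1 µg/ml. Anxa2, which forms a complex with S100a10 and binds plasminogen activators at the cell surface, stood at 258 and 296 TPM in control, 521 and 495 TPM at 0.1 µg/ml and 789 and 854 TPM at 0.5 µg/ml. This put it above Anxa4 in both libraries of each dose. Its log2 fold change was 0.91 ± 0.0589 (SE) at 0.1 µg/ml (edgeR adjusted p = 2.67e-06) and 0.75 ± 0.0585 between the doses (adjusted p = 3.53e-06). Anxa7, first described as synexin, a protein that joins secretory granules, followed nearly the same course as Anxa2: of the 45 pairs of members, these were the nearest in log2 CPM centred on the 6 libraries, at a distance of 0.162, where the next pair, Anxa3 and Anxa7, was at 0.651. Its levels were 39.4 and 42.3 TPM in control, 78.6 and 74.4 TPM at 0.1 µg/ml and 119.9 and 125 TPM at 0.5 µg/ml. The groups were apart, with a log2 fold change of 0.92 ± 0.0420 (SE) at 0.1 µg/ml (edgeR adjusted p = 2.25e-07) and 0.67 ± 0.0410 between the doses (adjusted p = 6.38e-07). Anxa3 went from 16.0 and 20.4 TPM in control to 34.2 and 33.5 TPM at 0.1 µg/ml and stood at 34.2 and 36.3 TPM at 0.5 µg/ml. It had risen at 0.1 µg/ml (log2 fold change 0.90 ± 0.0752 SE, edgeR adjusted p = 1.59e-05). The difference between the doses, 0.14 ± 0.0716 on the log2 scale, did not pass the test (adjusted p = 0.120, range over the alternatives 0.0328 to 0.777), and it passed without the first control library (adjusted p = 0.0328).

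Anxa6, the annexin with a duplicated core and a known role in membrane repair, changed most between the doses. Levels were 7.48 and 7.97 TPM in control, 8.92 and 9.18 TPM at 0.1 µg/ml and 56.0 and 56.8 TPM at 0.5 µg/ml. The 0.1 µg/ml libraries sat just above control and far below the higher dose. The log2 fold change was 0.27 ± 0.0508 (SE) at 0.1 µg/ml (edgeR adjusted p = 0.00306, range over the alternatives 0.00117 to 0.0659) and the level was 6.50-fold higher at 0.5 than at 0.1 µg/ml (SE 0.0467 on the log2 scale, adjusted p = 1.16e-09). Since Anxa6 and Anxa1 are also expressed by stromal and immune cells, the marker sums are given here. The 14 immune markers summed to 10.3 to 10.4 CPM in control, 11.02 to 11.2 at 0.1 µg/ml and 16.6 to 17.2 CPM at 0.5 µg/ml. Of the 4 immune markers tested at 0.5 µg/ml against control 2 were higher and 2 lower, beside 34.4% and 33.1% of all genes. Cd68 averaged 2.23, 4.75 and 13.5 CPM over the groups, and Ptprc 0, 0.0171 and 0.283 CPM, with 13 and 14 counts at 0.5 µg/ml. Cd14 went from 5.58 to 4.05 and 2.01 CPM and Itgam from 2.17 to 1.97 and 0.861 CPM. The 13 fibroblast markers summed to 74.5 to 85.3, 119.7 to 120.01 and 143 to 153 CPM, of which Fbln1 alone averaged 73.4, 116 and 141 CPM. Of the 5 fibroblast markers tested at 0.5 µg/ml against control 3 were higher and 2 lower, beside the same shares of all genes. Besides Fbln1, Col1a1 rose from 0.381 to 3.92 CPM and Dcn from 0 to 1.78 CPM. The inducible cassette lies at Col1A1, so for Col1a1 reads owed to that site and reads from fibroblasts cannot be told apart. Pdgfrb (1.09 CPM in control, 0.233 at 0.5 µg/ml) and Vim (4.92 and 0.287 CPM) were lower. The other 8, Col1a2, Col3a1 and Dpt among them, were too low to test. The part of such cells was not tested.

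Anxa10 rose at each step and Anxa5 had the smallest changes of the 10. Anxa10, known from gastric epithelium, stood at 10.6 and 12.6 TPM in control, 38.5 and 32.3 TPM at 0.1 µg/ml and 53.7 and 57.1 TPM at 0.5 µg/ml. The groups were apart, and the log2 fold change was 1.64 ± 0.0995 (SE) at 0.1 µg/ml (edgeR adjusted p = 1.78e-06) and 0.71 ± 0.0882 between the doses (adjusted p = 8.40e-05). Of 7 gastric markers tested 6 rose and 0 fell at 0.1 µg/ml, beside 20.8% and 13.8% of all genes, and 6 rose and 1, Vsig1, fell at 0.5 µg/ml over control, beside 34.4% and 33.1%. The 9 found of 11 listed summed to 10.9 to 11.3 CPM in control, 80.4 to 83.4 at 0.1 µg/ml and 217 to 238 CPM at 0.5 µg/ml, with the stomach genes Tff2 and Pgc at or near 0 throughout, and their part in the rise of Anxa10 was not tested. Anxa5 binds phosphatidylserine and is used as a probe for dying cells. It stood at 22.6 and 21.4 TPM in control, 24.1 and 25.2 TPM at 0.1 µg/ml and 23.5 and 28.2 TPM at 0.5 µg/ml. The doses overlapped, and the second library at 0.5 µg/ml was the highest. Its log2 fold change of 0.23 ± 0.0705 (SE) at 0.1 µg/ml had an edgeR adjusted p of 0.0325 (range over the alternatives 0.00478 to 0.431), and leaving out any of the 4 control or 0.1 µg/ml libraries ended the call, with adjusted p from 0.0753 to 0.173. At 0.5 µg/ml the value was 0.36 ± 0.0710 over control (adjusted p = 0.00134), a call lost with limma on TPM (adjusted p from 0.0688 to 0.152). The difference between the doses, 0.13 ± 0.0696, did not pass (adjusted p = 0.133), and with the first 0.5 µg/ml library left out it passed (0.23, adjusted p = 0.0180).

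Anxa4 and Anxa13, annexins of the apical side of epithelial cells, were the members that fell. Anxa4 went from 622 and 650.4 TPM in control to 443 and 485 TPM at 0.1 µg/ml and 229.7 and 235 TPM at 0.5 µg/ml. The 3 groups were apart, with a log2 fold change of -0.42 ± 0.0443 (SE) at 0.1 µg/ml (edgeR adjusted p = 7.71e-05) and -0.94 ± 0.0448 between the doses (adjusted p = 1.31e-07). Anxa13 went from 149.9 and 161 TPM in control to 121 and 114 TPM at 0.1 µg/ml and 39.3 and 38.3 TPM at 0.5 µg/ml. Its order fell from the third to the seventh of the 10, and the log2 fold change was -0.37 ± 0.0507 (SE) at 0.1 µg/ml (edgeR adjusted p = 4.30e-04) and -1.54 ± 0.0537 between the doses (adjusted p = 2.14e-08). The 14 enterocyte markers summed to 3248 to 3724 CPM in control, 4262 to 5528 CPM at 0.1 µg/ml and 1949 to 1972 CPM at 0.5 µg/ml, with 9 higher and 2 lower at 0.1 µg/ml (20.8% and 13.8% of all genes) and 0 higher and 10 lower at 0.5 µg/ml over control (34.4% and 33.1%). Anpep and Dpp4 were lower at both doses. The 7 goblet markers summed to 3148 to 3439, 2380 to 2718 and 751 to 759 CPM in the same order. Sums of 3 other lists were also lower at each dose. They were 1193 to 1348, 367 to 488 and 143 to 151 CPM for 6 Paneth markers. For 10 enteroendocrine markers they were 330 to 421, 116 to 130 and 29.9 to 33.2 CPM. For 8 crypt base stem markers they were 655 to 861, 280 to 380 and 150.6 to 150.9 CPM. The part of these cell types in the fall of Anxa4 and Anxa13 was not tested.

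**Figure D2:**
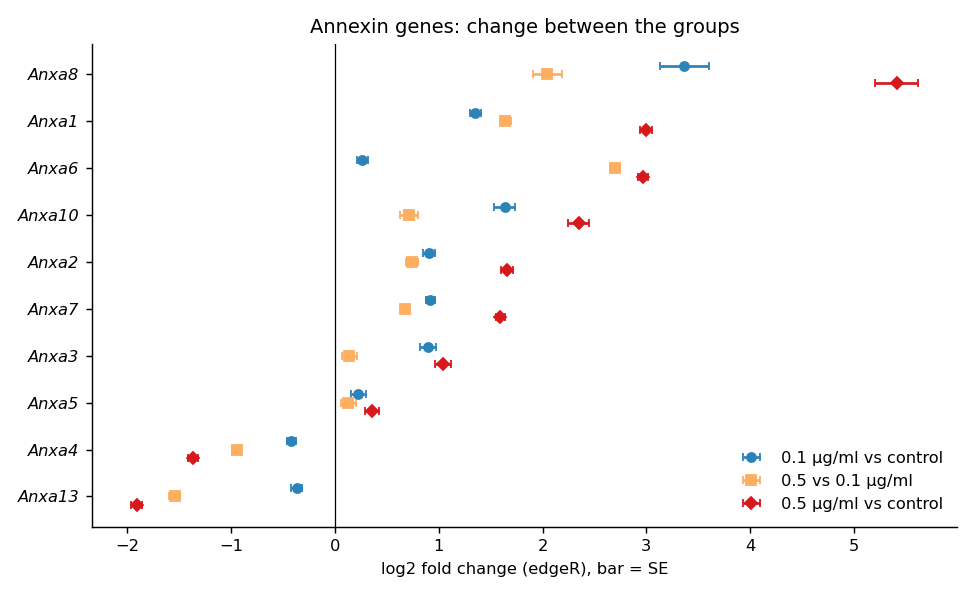
Log2 fold change (horizontal axis, edgeR, bars show SE) of each annexin gene for 0.1 µg/ml against control, 0.5 against 0.1 µg/ml and 0.5 µg/ml against control. Anxa8 has the largest edgeR change over control, Anxa6 changes mainly between the doses (log2 0.27 first, then 6.50-fold), and Anxa4 and Anxa13 lie to the left of 0.

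The members differed in which step was the larger. These steps are not equal increments, either in dose or in the rise of the factors. From control to 0.1 µg/ml and then between the doses, the log2 fold change was 9.48 and 1.85 for Pou5f1, 8.63 and 1.87 for Sox2, 2.87 and 1.76 for Klf4 and 2.49 and 1.74 for Myc. The step between the doses was compared with the step from control to 0.1 µg/ml in the same edgeR model, a test added after the values were seen, and 8 of the 10 annexins passed it, beside 27.0% of all tested genes (9.77% with a positive difference and 17.2% with a negative difference). Of the 8, 2 differences were positive and 6 negative, a fall that deepened between the doses counting as negative. Anxa6 (second minus first step 2.43 ± 0.0859 SE, edgeR adjusted p = 2.96e-07), Anxa13 (-1.17 ± 0.0878, adjusted p = 3.07e-05) and Anxa4 (-0.53 ± 0.0761, adjusted p = 9.37e-04) changed more between the doses. Anxa10 (-0.92 ± 0.159, adjusted p = 0.00241) and Anxa3 (-0.76 ± 0.125, adjusted p = 0.00187) changed more from control to 0.1 µg/ml, so that 86.5% of the log2 rise of Anxa3 over control at 0.5 µg/ml was present at 0.1 µg/ml, against 8.94% for Anxa6. These 5 calls held in at least 14 of 15 alternatives each. Anxa8 (-1.32 ± 0.336), Anxa7 (-0.25 ± 0.0711) and Anxa1 (0.29 ± 0.0911) passed with edgeR adjusted p of 0.0172, 0.0300 and 0.0442 and kept the call in 9, 3 and 9 of 15 alternatives. The Anxa8 call was lost without the second control library or either library at 0.1 µg/ml (adjusted p from 0.0643 to 0.0772), and the Anxa7 call without any 1 of the 6 libraries (from 0.0636 to 0.331). The Anxa1 call was lost without any 1 library other than the second control (from 0.0566 to 0.236). Anxa2 (-0.16 ± 0.101, adjusted p = 0.280) and Anxa5 (-0.10 ± 0.121, adjusted p = 0.610) did not pass.

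The make-up of the annexin transcripts shifted from Anxa4 to Anxa2. Summed over the 10 genes, annexins held 1152 and 1238 TPM in control, 1333 and 1329 TPM at 0.1 µg/ml and 1527 and 1618 TPM at 0.5 µg/ml. These sums did not overlap between groups. The share of Anxa4 and Anxa13 together went from 67.0 and 65.6% in control to 42.3 and 45.1% with the lower dose and 17.6 and 16.9% with the higher. The ratio of Anxa2 to Anxa4 in TPM was 0.415 and 0.456 in the control libraries, 1.18 and 1.02 in those with 0.1 µg/ml and 3.43 and 3.63 in those with 0.5 µg/ml, and crossed 1 at the lower dose in both libraries. Anxa1 took 2.19 and 2.02% of the sum in control and 11.5 and 11.01% at 0.5 µg/ml. With 2 libraries against 2 an exact permutation test of such a single value cannot go below p = 0.333, so none was made. Without Anxa2 the sum moved the other way, averaging 918, 823 and 751 TPM over the same groups. At 0.5 µg/ml the order was Anxa2, Anxa4, Anxa1, Anxa7, Anxa6, Anxa10, Anxa13, Anxa3, Anxa5 and Anxa8, in which Anxa6 and Anxa10 overlapped, and at 0.1 µg/ml Anxa10 and Anxa3 were the only neighbours that overlapped.

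**Figure D3:**
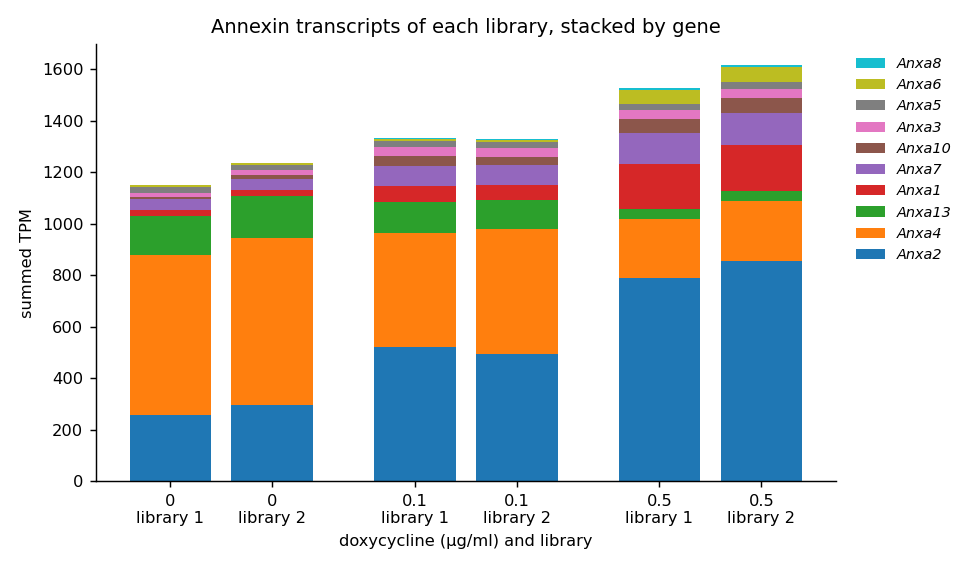
Summed TPM (vertical axis) of the 10 annexin genes in each of the 6 libraries, stacked by gene, with doxycycline dose in µg/ml below. The blue Anxa2 part grows from 22.4 and 23.9% of the sum in control to 51.6 and 52.8% at 0.5 µg/ml, while the orange Anxa4 part shrinks.

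Neither annexin outside the list rose at 0.1 µg/ml. Anxa11, a ribonucleoprotein-granule and vesicle annexin, stood at 90.4 and 86.0 TPM in control, 67.0 and 69.9 TPM at 0.1 µg/ml and 49.6 and 49.9 TPM at 0.5 µg/ml, and was lower at each step (log2 fold change -0.33 ± 0.0477 SE at 0.1 µg/ml, edgeR adjusted p = 5.79e-04, and -0.40 ± 0.0482 between the doses, adjusted p = 7.58e-05). Anxa9 had 16 to 32 counts a library. Its log2 fold change of 0.84 ± 0.305 (SE) at 0.5 µg/ml over control passed (edgeR adjusted p = 0.0338), held in 6 of 14 alternatives, and was lost when any single control or 0.5 µg/ml library was left out (adjusted p from 0.0896 to 0.151) and without the second library at 0.1 µg/ml (0.0529). It also overlaps Mindy1 on the other strand, a gene with 1791 to 3086 counts. Of genes that overlap a member in GENCODE M21, the antisense Gm16144 at Anxa2 had 9 to 79 counts a library and the others at most 18.

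Partners of the annexins were followed in lists. S100 proteins are small calcium-binding dimers that clasp the annexin tail. S100a4, S100a6, S100a10 and S100a11 were higher at each dose and between the doses, 4 of the 4 tested of 5 listed, where 20.8%, 34.4% and 29.8% of all genes were higher at 0.1 and 0.5 µg/ml over control and between the doses. S100b was too low to test. S100a10, the partner of Anxa2, stood at 399 and 384 TPM in control, 596 and 632 TPM at 0.1 µg/ml and 891 and 979.8 TPM at 0.5 µg/ml. Its groups were apart (log2 fold change 0.69 ± 0.04999 SE at 0.1 µg/ml, edgeR adjusted p = 5.88e-06). Per Anxa2 transcript in TPM, S100a10 was at 1.54 and 1.29 in the control libraries, 1.14 and 1.28 in those with 0.1 µg/ml and 1.13 and 1.147 in those with 0.5 µg/ml. The control libraries were the highest, and the doses overlapped. S100a4 had the largest fold of the list, from 0.252 ± 0.0454 to 2.12 ± 0.496 and 19.2 ± 2.92 CPM (SD, n = 2). S100a6, a partner of several annexins, rose 10.8-fold and S100a11, a partner of Anxa1, 4.15-fold at 0.5 µg/ml over control (log2 3.44 ± 0.0627 and 2.05 ± 0.0639 SE). The formyl peptide receptors, through which Anxa1 acts on cells, were near absent: of 7 genes only Fpr1 (1 count in a control library and 1 at 0.5 µg/ml) and Fpr2 (1 count at 0.1 µg/ml) had any count.

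Of the 18 membrane repair genes 15 were tested, and 12 rose and 0 fell at 0.1 µg/ml, where 20.8% of all genes rose and 13.8% fell. At 0.5 µg/ml over control 11 were higher and 1 lower, where 34.4% rose and 33.1% fell. Between the doses 10 were higher and 2 lower, beside 29.8% and 29.1% of all genes. The list's median log2 fold change was 0.50 and 0.47 over control, and 0.41 between the doses. Ahnak, a giant scaffold that binds S100a10 and Anxa2, went from 80.4 ± 11.03 to 352 ± 33.9 and 1480.5 ± 43.9 CPM (SD, n = 2). It reached 18.4-fold over control at 0.5 µg/ml (log2 4.20 ± 0.0979 SE, edgeR adjusted p = 4.74e-10). Capn2, a catalytic subunit of the calpain proteases needed for repair, went from 14.3 ± 2.004 to 76.2 ± 5.05 and 233 ± 4.34 CPM (16.3-fold at 0.5 µg/ml over control). Fer1l4 of the ferlin family went from 0.682 ± 0.220 to 14.0 ± 0.340 and 36.0 ± 1.21 CPM. The gene that fell at 0.5 µg/ml was the ferlin Fer1l6, at 1.90, 2.699 and 0.777 CPM in the 3 groups, and between the doses Trim72 fell with it. Dysf, the ferlin best known from muscle repair, was too low to test.

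The plasminogen system, which cell-surface Anxa2 and S100a10 help to activate, did not rise as a list. Of 9 genes 7 were tested, and 1 rose and 4 fell at 0.1 µg/ml, 1 rose and 6 fell at 0.5 µg/ml over control, and 1 rose and 5 fell between the doses (median log2 fold change -0.78, -1.91 and -0.88). Over all genes 20.8%, 34.4% and 29.8% rose and 13.8%, 33.1% and 29.1% fell in the same comparisons. The riser was Plaur, the urokinase receptor, which went from 11.3 ± 3.41 to 32.6 ± 1.16 and 129 ± 1.94 CPM (SD, n = 2). Plgrkt, a plasminogen receptor, fell from 109.5 ± 4.74 to 90.2 ± 1.45 and 49.1 ± 0.636 CPM. Plat, the tissue plasminogen activator, stood at 11.3 ± 0.863, 9.83 ± 0.287 and 5.97 ± 0.285 CPM and was lower at 0.5 µg/ml than in either other group. Plg, the plasminogen gene itself, was too low to test.

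**Figure D4:**
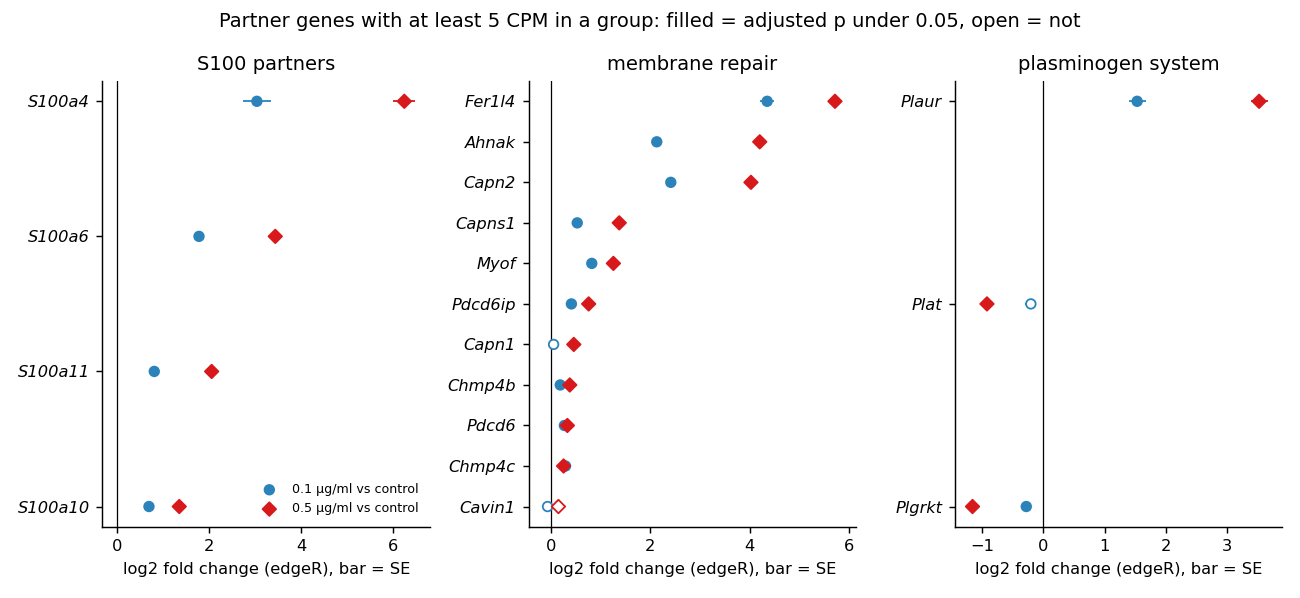
Log2 fold change over control (horizontal axis, edgeR, bars show SE) of the tested S100 partners, membrane repair genes and plasminogen system genes that reached 5 CPM in some group, at 0.1 and 0.5 µg/ml, with filled symbols at an adjusted p under 0.05. All 4 S100 partners lie to the right of 0 at both doses, and Plaur is the single plasminogen system gene shown to the right of 0.

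Phospholipases A2, which release arachidonate and which annexins inhibit in vitro, were called at shares near those of all genes at 0.5 µg/ml. Of 17 tested of 19, 5 rose and 3 fell at 0.1 µg/ml, 6 rose and 6 fell at 0.5 µg/ml over control, and 6 rose and 7 fell between the doses (median log2 fold change 0.15, 0.17 and -0.59). Over all genes 20.8% rose and 13.8% fell, 34.4% rose and 33.1% fell, and 29.8% rose and 29.1% fell in the same comparisons. Pla2g4c rose from 0.382 ± 0.0895 to 3.24 ± 0.0241 and 11.7 ± 0.0771 CPM (SD, n = 2). Pla2g4a, the cytosolic enzyme reported as an Anxa1 target, dipped from 12.9 ± 1.70 to 6.44 ± 1.21 CPM at 0.1 µg/ml (edgeR adjusted p = 3.03e-04) and stood at 14.6 ± 0.171 CPM at 0.5 µg/ml, which did not pass against control. Genes that place phosphatidylserine on the outer or inner leaflet, the lipid that Anxa5 reads, numbered 18 tested of 20, with 4 higher and 2 lower at 0.1 µg/ml, 7 higher and 8 lower at 0.5 µg/ml over control, and 7 higher and 8 lower between the doses (median 0.07, -0.48 and -0.36). At 0.1 µg/ml these counts were near the shares over all genes just given, and nothing particular to the list is read from them. The flippase genes Atp8a1 and Atp8a2, which return the lipid to the inner leaflet, fell at 0.5 µg/ml from 42.2 ± 4.02 to 15.5 ± 0.411 CPM and from 21.8 ± 0.850 to 6.65 ± 0.124 CPM, whereas the flippase gene Atp11a rose from 8.26 ± 0.517 to 27.8 ± 1.23 CPM.

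Genes outside the family whose course over the 6 libraries lay nearest to a member's were found by the distance in log2 CPM centred on each gene's mean. For Anxa1 these were Fah (distance 0.149), Alg13 (0.157) and Cmtm3 (0.158). For Anxa8, they were Rnf224 (0.297), Timp1 (0.300) and Hrh1 (0.319), all low in control. Enpp5 (0.0977) and Acpp (0.114) were among the nearest to Anxa13, each falling mainly between the doses. These distances rest on 6 libraries, over which many genes differ with dose.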

How the data were processed

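Messenger RNA was sequenced from 6 organoid libraries, and the deposited tables hold the authors' expected counts (estimated reads per gene) and TPM (transcripts per 1000000, scaled by length). Per the submitters' processing notes, the tools were RSEM 1.3.3, STAR 2.7.3a, Trim Galore and FastQC, with builds GRCm39 and mm10 whose roles are not given. The library kit is directional per the labels' protocols, and whether counting used strand was not given in the sources consulted. Symbols came from a GENCODE M21 table, which matched 52083 of 55416 identifiers (94.0%).

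Expected counts were rounded, filtered with filterByExpr (16975 genes, 99.96% of counts), scaled by TMM (factors 0.964 to 1.04) and fitted over the 3 groups with edgeR 4.0.16 (R 4.3.3) by quasi-likelihood, with 3 residual degrees of freedom per gene and Benjamini-Hochberg adjustment at 0.05. TPM was not tested in the main analysis. Alternatives were DESeq2 1.42.0, other scalings, no filter, limma 3.58.1 on log2(TPM + 1) and log2(TPM + 0.1), the compared groups alone, a replicate block and each library left out. The scripts were tested on simulated data.

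The members and lists were chosen with earlier results of these data known. Genes named are the 10 members, the 4 factors, per partner list and comparison at most the 3 largest called changes among genes that reached 5 CPM in some group, any group of 5 or fewer that a count singles out, and the 3 genes nearest to each of Anxa1, Anxa8 and Anxa13. Some genes that this rule names are not reported here. Protein sequences were not analysed here.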

Additional observations from a re-analysis of the deposited data

How the results depend on the processing

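Over 16 alternatives, 6 to 8 annexins were higher and 2 lower at 0.1 µg/ml than in control, 7 to 8 higher and 2 lower at 0.5 µg/ml than in control, and 6 to 7 higher and 2 lower between the doses. Leaving out the gene with the highest TPM over all 6 libraries, Anxa2, moved the mean summed annexin TPM to 918 in control, 823 at 0.1 µg/ml and 751 at 0.5 µg/ml. The step difference of Anxa8 reversed to 0.26 with limma on log2(TPM + 1), with and without the filter (adjusted p = 0.403 and 0.612). On log2(TPM + 0.1) it stayed negative, at -0.87 (limma adjusted p = 0.109). The 1 added is larger than the mean Anxa8 level in control, 0.190 TPM, and the cause of the reversal was not tested. Over all genes, the 5881 calls at 0.1 µg/ml became 3505 with limma on log2(TPM + 1), 3508 on log2(TPM + 0.1), 2520 without its filter, and 3800 with the first 0.1 µg/ml library left out. Same-numbered libraries deviated together with correlations of -0.211, 0.184 and -0.0699 over 10368 genes, so the numbers were not taken to pair them. With the replicate block the counts of annexins were 8 higher and 2 lower, 8 and 2, and 6 and 2, and the calls over all genes at 0.1 µg/ml 5265. With the numbers swapped at 0.1 µg/ml, chosen after seeing the data, the annexin counts were 8 and 2, 8 and 2, and 7 and 2. Depth limits Anxa8 in control (11 to 16 counts) and Anxa9 (16 to 32 counts).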
